A study of Mus musculus with 6 samples.

Results

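The Slc25 family holds the carriers of the inner mitochondrial membrane, and 46 of its genes were measured among 19938 named genes in jejunal epithelium of mice with and without an induced Musashi transgene. The genes were chosen by name: every array row annotated to a single symbol that begins with Slc25a was taken, 50 rows in all, and for a gene with several rows the row with the highest mean over the 6 arrays was kept. Carriers of this family move metabolites, nucleotides, cofactors and ions between the cytosol and the mitochondrial matrix, mostly by exchange of one substrate for another. In enterocytes, the absorptive cells of the villus, they link mitochondrial fuel use to the making of citrulline, lipid and heme. The proteins are made in the cytosol and inserted into the inner membrane through a dedicated import machinery.

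RNA came from total epithelial cell preparations of the jejunum, the stretch of small bowel after the duodenum, and was hybridised to whole-transcript arrays. The 3 control animals carried R26-M2rtTA, an activator that works only with doxycycline and is placed at the Rosa26 locus, which is active in most cell types and not in the epithelium alone. The 3 transgenic animals carried the same activator with a TRE-driven Musashi gene, which the series text calls Msi1 and the genotype label MSI2. All 6 animals drank doxycycline for 24 h. The controls therefore share the activator and the drug and differ from the transgenic animals in the transgene, and the effect of the drug itself is not compared here.

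The values are log2 signals after robust multi-array averaging, a background correction, normalization and summary of probes, so a difference of 1.00 is a doubling. Msi1 separated the groups, with 6.86 to 7.03 on the controls and 12.51 to 12.68 on the transgenic arrays, and Msi2 was no higher on any transgenic array than on the highest control. Transgenic replicate 1 differed most from the rest. Its correlations with the other 5 arrays across genes lay between 0.922 and 0.951, against values up to 0.996 among those 5, so the main counts below are also given without it. All 10 enterocyte markers were among the brightest 25% of genes on the controls, while 0 of 8 markers of stroma and smooth muscle, 0 of 5 of B and plasma cells and 0 of 4 of endothelium did. Of the markers of T and intraepithelial lymphocytes, 4 of 8 did.

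Differences are transgenic minus control, tested with limma across all genes, with Benjamini-Hochberg adjustment over them, and the threshold was an adjusted p of 0.05. For a single value on 3 and 3 arrays, p = 0.1 is the smallest an exact two-sided permutation can give. In the family 14 of 46 genes passed (30.4%), where 11.9% of all genes did: 6 rose (13%, against 6.04% of all genes) and 8 fell (17.4%, against 5.84%). The rises were of Slc25a25, Slc25a26, Slc25a28, Slc25a30, Slc25a33 and Slc25a38, and the falls of Slc25a1, Slc25a10, Slc25a11, Slc25a15, Slc25a22, Slc25a35, Slc25a39 and Slc25a42. Their changes ran from 1.49-fold to 4.05-fold. The median difference of the 46 genes was -0.06, beside -0.04 over all genes tested, and the median size of the difference without its sign was 0.37, beside 0.16. Members thus passed in both directions. Of the 46 genes 9 were among the dimmest 40% of all genes, and 0 of those 9 passed. When that dim part of the table was left out, 15 of the 37 remaining family genes passed (40.5%), where 19.6% of the remaining genes did: 6 rose (16.2%, against 10%) and 9 fell (24.3%, against 9.51%). The added gene was Slc25a37. Dimness was judged on the mean of all 6 arrays, with a cut at 6.08. Slc25a33, counted among the 6 rises, had a control mean of 5.66, below that cut, and a transgenic mean of 6.80. It stayed in only through its transgenic values, so its place in this count lends no support to its rise.

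**Figure D1:**
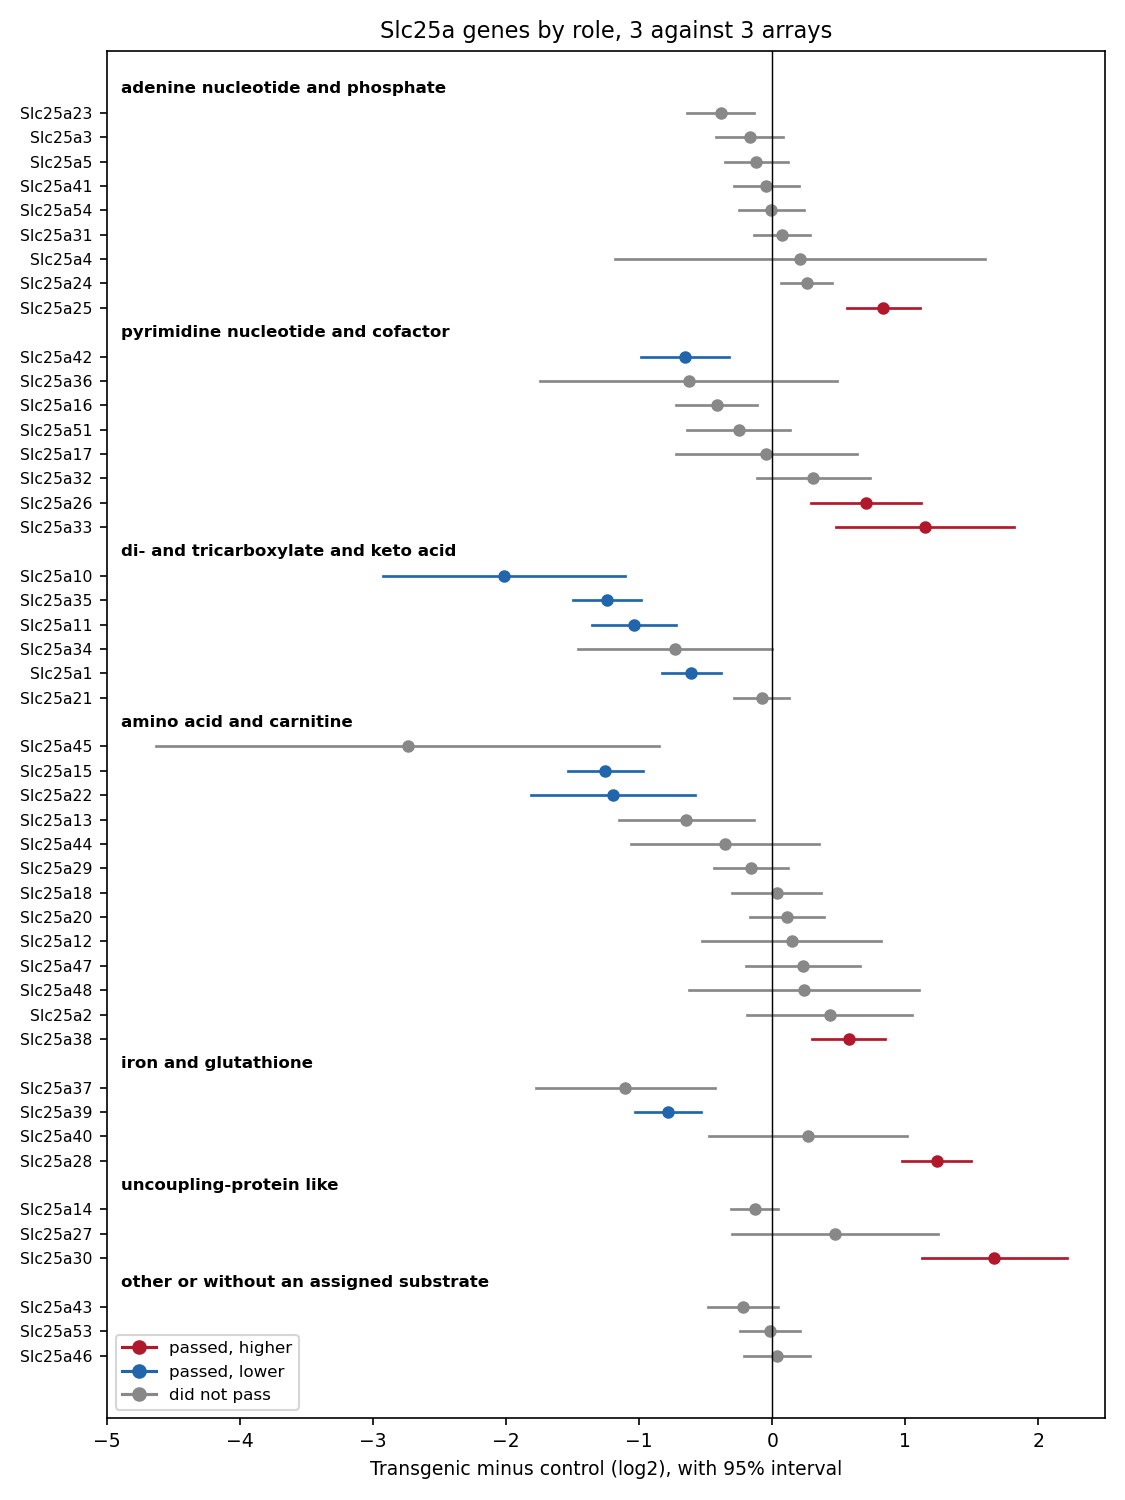
Difference between transgenic and control arrays (log2, x axis) for each of the 46 Slc25a genes, grouped by the substrate of the carrier, with points for the limma estimate, bars for its 95% interval and colour for the 6 genes that rose, the 8 that fell and the others. The carboxylate carriers lie to the left of 0, while the adenine nucleotide carriers have short bars, apart from Slc25a4.

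The calls depended on the arrays that entered. Without transgenic replicate 1, 23 genes passed (50%, against 28.6% of all genes), 8 higher and 15 lower (17.4% and 32.6%, against 14% and 14.5%), and these included all 14 named above with the same direction. Without control replicate 1, 4 passed (8.7%, against 3.43% of all genes), namely Slc25a11, Slc25a15, Slc25a28 and Slc25a35. These 4 kept their calls with each of the 6 arrays left out in turn. Slc25a25, Slc25a30 and Slc25a39 lost theirs without control replicate 1 alone (adjusted p up to 0.0523), and the other 7 lost theirs when any 1 control was left out (up to 0.178). With control replicate 2 left out 3 rose and 4 fell (15.2% passed, against 3.65% of all genes), and with control replicate 3 left out the counts were the same (against 4.41%). Without transgenic replicate 2 it was 3 and 6 (19.6%, against 5.86%), and without transgenic replicate 3 it was 4 and 8 (26.1%, against 8.82%). The share of all genes that passed thus also fell with each of these 5 arrays left out.

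The carriers of di- and tricarboxylic acids were the role with the highest share of falls. Of 6 measured genes 4 fell and 0 rose, with a median difference of -0.89 over the 6, where 5.84% of all genes fell. Without transgenic replicate 1, 5 fell (against 14.5% of all genes), with a median of -0.72. Slc25a10, which exchanges malate and succinate for phosphate, had 10.69, 10.66 and 10.59 on the controls against 7.72, 9.03 and 9.13 on the transgenic arrays. The groups did not overlap, and transgenic replicate 1 was by far the lowest array. It fell by 2.02 (SE 0.374, adjusted p = 0.0221), or 4.05-fold, and 2.96-fold without that array (adjusted p = 1.09e-05). Slc25a11 exchanges 2-oxoglutarate for malate and is a part of the malate-aspartate shuttle, by which cytosolic NADH is used in mitochondria. Its signal was 11.39, 11.38 and 11.35 on the controls and 10.06, 10.45 and 10.49 on the transgenic arrays, and it fell by 1.04 (SE 0.13, adjusted p = 0.00674). The SD of the 3 controls was 0.02, far less than the distance between the groups.

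Slc25a1, the citrate carrier that supplies the cytosol with acetyl units for lipid synthesis, fell less. It had 10.55, 10.51 and 10.49 against 9.77, 9.99 and 9.96, a difference of -0.61 (SE 0.0907, adjusted p = 0.0111) or 1.52-fold. Slc25a35, a relative of the dicarboxylate carriers whose substrate is less well established, had 8.30, 8.16 and 8.17 against 6.80, 7.08 and 7.02. It fell by 1.24 (SE 0.105, adjusted p = 0.00233), and all 3 transgenic arrays lay more than 1 unit below the lowest control. The similar gene Slc25a34 had 7.08, 6.89 and 6.77 against 5.48, 6.53 and 6.54 and did not pass (-0.73, adjusted p = 0.2), but passed as lower without transgenic replicate 1 (-0.38, adjusted p = 0.0271). Slc25a21, the carrier of oxodicarboxylates, had a mean signal of 4.10 on the controls and 4.02 on the transgenic arrays, in the dim part of the table, and its difference of -0.08 did not pass.

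The upstream sequences of the 3 carriers with a named carboxylate substrate that fell are shown as an illustration of the promoters behind these signals. They are the 250 bases before the RefSeq gene start in GRCm38.p6, 5′ to 3′ on the strand of the gene, with GC boxes (GGGCGG or its complement CCGCCC) and CCAAT boxes (CCAAT or its complement ATTGG) in capitals.
Slc25a1, chr16:17928220-17928469, minus strand: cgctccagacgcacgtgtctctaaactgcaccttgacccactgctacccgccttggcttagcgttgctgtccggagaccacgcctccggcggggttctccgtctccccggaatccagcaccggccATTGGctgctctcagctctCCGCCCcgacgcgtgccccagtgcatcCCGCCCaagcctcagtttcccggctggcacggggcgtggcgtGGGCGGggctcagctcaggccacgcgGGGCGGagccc
Slc25a10, chr11:120491587-120491836, plus strand: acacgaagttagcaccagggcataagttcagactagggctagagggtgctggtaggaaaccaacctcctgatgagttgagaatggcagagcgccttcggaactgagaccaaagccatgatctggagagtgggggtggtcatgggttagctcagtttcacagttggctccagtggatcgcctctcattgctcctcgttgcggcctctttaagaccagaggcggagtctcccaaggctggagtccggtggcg
Slc25a11, chr11:70647040-70647289, minus strand: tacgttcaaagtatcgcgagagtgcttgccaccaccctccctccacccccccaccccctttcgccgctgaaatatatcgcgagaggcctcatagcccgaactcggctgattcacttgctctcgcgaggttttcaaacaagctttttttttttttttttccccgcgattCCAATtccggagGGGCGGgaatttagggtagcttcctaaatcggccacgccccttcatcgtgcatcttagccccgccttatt
The window of Slc25a1 held 4 GC boxes and 1 CCAAT box, that of Slc25a11 held 1 of each, and that of Slc25a10 held 0 of either.
A window was at hand for 36 of the 46 genes. A GC box was found for 25 of these (69.4%), beside 35.4% of all 27025 genes in the promoter table, and a CCAAT box for 18 (50%), beside 37.5%. Among genes with a window, 4 of 5 that rose and 6 of 7 that fell had a GC box, and 4 of 5 and 4 of 7 had a CCAAT box. For the E-box CACGTG, searched as this palindrome, the count was 7 of 36 (19.4%, beside 6.86%), with 1 gene that rose (Slc25a33) and 2 that fell (Slc25a1 and Slc25a15). The NRF1 motif, GCGC and GCGC with 2 bases between them, was found for 2 of 36 (5.56%, beside 5.64%) and the ETS motif CCGGAAG or its complement CTTCCGG for 6 of 36 (16.7%, beside 7.83%). The promoter table holds more genes than were tested on the arrays, so its shares are not a matched background for the family. Whether the family differs in these motifs from other measured genes was not tested. These are matches of letters in a window and not sites of a factor.

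Enzymes that use the substrates of these carriers included 1 fall. Of 9 measured genes of the citrate-malate and malate-aspartate shuttles 1 fell and 0 rose, with a median of -0.41. Of all genes 5.84% fell, and of those outside the dimmest 40%, 9.51% did, so 1 of 9 is near that share. Without transgenic replicate 1 the count was 3 lower (against 14.5% of all genes), with a median of -0.12. The malic enzyme Me2, which is mitochondrial, fell by 1.01 (SE 0.182, adjusted p = 0.0206). The mitochondrial malate dehydrogenase gene Mdh2 differed by -0.41 (adjusted p = 0.0671) and Ogdh, of the oxoglutarate dehydrogenase complex, by -0.66 (adjusted p = 0.247), and both passed as lower without transgenic replicate 1.

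Carriers of amino acids and carnitine changed one by one. Of 13 measured genes, 2 fell and 1 rose around a median of 0.03, where 5.84% and 6.04% of all genes did. Without transgenic replicate 1, 4 fell and 2 rose (against 14.5% and 14% of all genes). Slc25a15 exchanges cytosolic ornithine for citrulline and is part of the route by which enterocytes make citrulline for the body. Its signal was 10.87, 10.74 and 10.77 on the controls and 9.32, 9.67 and 9.63 on the transgenic arrays, and it fell by 1.26 (SE 0.116, adjusted p = 0.00304) or 2.39-fold. The groups lay more than 1 unit apart. Slc25a22, a carrier that brings glutamate into the matrix, had 9.34, 9.36 and 9.74 against 7.73, 8.56 and 8.55, and fell by 1.20 (SE 0.254, adjusted p = 0.0331). It was lowest on transgenic replicate 1 and the call was lost without any other single array. Slc25a38 imports glycine, the first substrate of heme synthesis, and moved the other way. It had 9.80, 9.94 and 9.66 against 10.25, 10.36 and 10.52, and rose by 0.57 (SE 0.113, adjusted p = 0.0264), with all 3 transgenic arrays above the highest control.

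Slc25a45 had the widest difference of the family without passing the test. Its signal was 11.28, 11.17 and 11.33 on the controls and 6.60, 9.48 and 9.47 on the transgenic arrays, so the groups did not overlap and transgenic replicate 1 lay almost 3 units below the other 2. The difference was -2.74 (SE 0.779, adjusted p = 0.0793), and without transgenic replicate 1 it fell by 1.78 (adjusted p = 7.23e-06). The aspartate-glutamate carriers Slc25a12 and Slc25a13, which serve the same shuttle as Slc25a11, did not pass. Slc25a13 had 8.52, 8.59 and 8.78 against 8.44, 7.84 and 7.67 (-0.65, adjusted p = 0.112), and passed as lower without transgenic replicate 1 (-0.87, adjusted p = 0.0005). Slc25a12, chosen for this comparison after its values were seen, had 8.47, 8.61 and 8.30 against 9.24, 8.36 and 8.22 (0.15, adjusted p = 0.818). With each array set against the control mean, the change of Slc25a12 relative to Slc25a13 was 0.79 (SD 0.16 over 3 transgenic arrays), with transgenic arrays from 0.68 to 0.98 and controls from -0.31 to 0.19. As the pair was chosen with its values known, this is a description with no test. Slc25a2, a close relative of Slc25a15, had 5.54, 5.71 and 5.55 against 5.44, 6.29 and 6.38, in the dim part of the table, and passed as higher without transgenic replicate 1 (0.73, adjusted p = 0.000572).

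The remaining 6 genes of this role differed by -0.36 to 0.24 and did not pass with or without transgenic replicate 1. Among them the carnitine-acylcarnitine carrier Slc25a20, through which long-chain fatty acids reach the matrix, had a difference of 0.11 with a 95% interval of -0.16 to 0.39. Of 8 measured enzymes of the carnitine shuttle and the first step of fatty acid oxidation 2 fell and 1 rose. Over all genes 5.84% fell and 6.04% rose. The acyl-CoA dehydrogenase Acadm fell by 0.99 (adjusted p = 0.00671) and Acadvl by 0.49 (adjusted p = 0.0498), while Acadl rose by 0.94 (adjusted p = 0.00409). These enzymes act on chains of different length, and without transgenic replicate 1 the counts were 3 lower and 1 higher.

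Enzymes of ornithine, citrulline and glutamate included several falls. Of 10 measured 3 fell and 0 rose, the median being -0.41, where 5.84% of all genes fell. Without transgenic replicate 1, 6 fell (against 14.5% of all genes), with a median of -0.42. Otc, which makes citrulline from ornithine, had 10.43, 10.37 and 10.43 on the controls and 8.10, 9.11 and 8.62 on the transgenic arrays. It fell from a mean of 10.41 to 8.61 (SE of the difference 0.245, adjusted p = 0.00864). Arg2, the mitochondrial arginase that makes ornithine, had a difference of -2.84 (SE 0.659, adjusted p = 0.0438), which was -2.03 without transgenic replicate 1. Aldh18a1, which makes the precursor of ornithine and proline from glutamate, fell by 0.90 (SE 0.181, adjusted p = 0.0278).

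Levels of cell type markers are given beside these groups of genes. Over all genes 5.84% fell and 6.04% rose, and without transgenic replicate 1, 14.5% fell and 14% rose. Of 10 enterocyte markers 0 passed, but their mean signal was 12.30 to 12.44 on the controls and lower on all 3 transgenic arrays, with 9.63 on transgenic replicate 1. Without that array 5 passed as lower. The means of 8 lymphocyte markers were 8.39 to 8.64 and 5.61 to 7.93, with 1 lower (Cd8b1) and 7 lower without transgenic replicate 1. Those of 8 stem and dividing cell markers were 9.07 to 9.25 and 7.99 to 9.17, with 2 lower and then 7, and those of 5 Paneth cell markers 11.30 to 11.33 and 9.98 to 12.10, with 0 and then 5 lower. On transgenic replicate 1 the median marker of the stem and dividing cells and of the Paneth cells lay above the controls (0.63 and 0.67), while on the other 2 arrays it lay below. Of the goblet markers 1 of 6 was lower and of the enteroendocrine markers 3 of 7 (3 and 4 without transgenic replicate 1, where 1 enteroendocrine marker rose). Of 4 tuft cell, 5 B and plasma cell, 7 macrophage and granulocyte, 8 stroma and smooth muscle, 4 endothelium, 1 red cell and 2 neuron and glia markers 0 passed. Without transgenic replicate 1 the macrophage and granulocyte list had 1 marker higher (Itgam, 0.71) and 1 lower (Lyz2, -1.65), and the other 6 lists still had 0. The part of cell composition in the changes of the carriers was not tested. In RNA of a whole preparation, fewer cells of a type and less RNA per cell cannot be told apart.

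**Figure D2:**
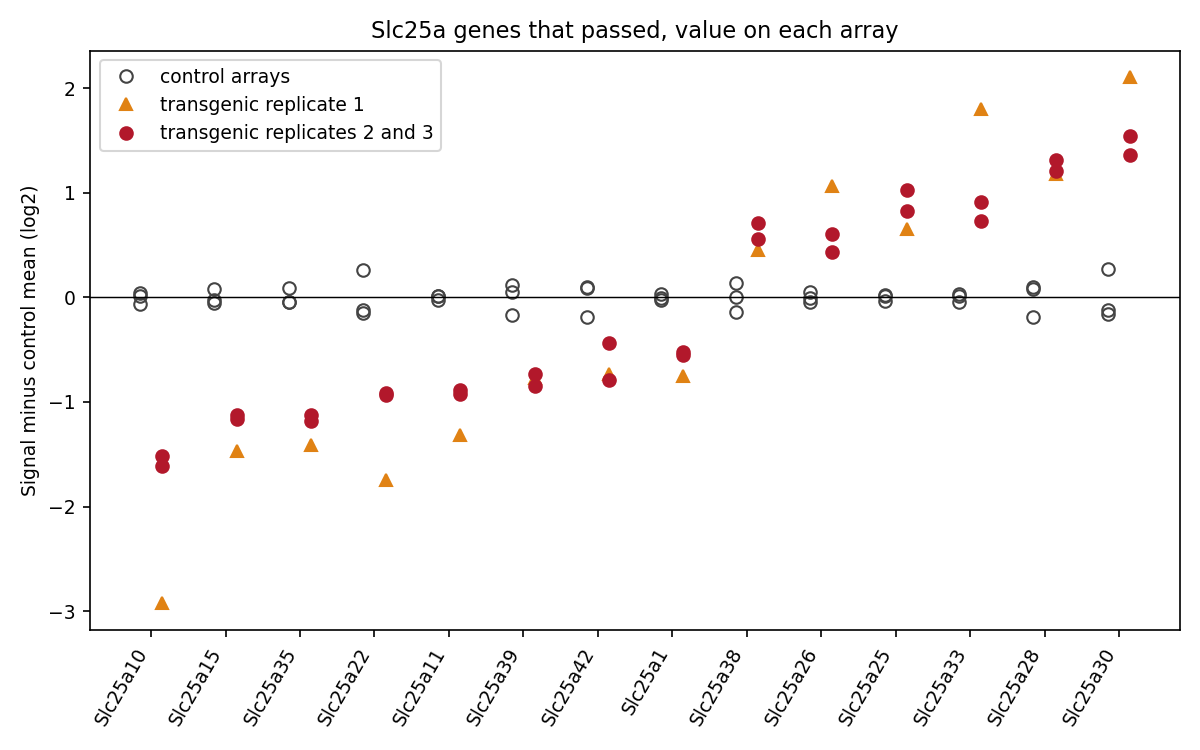
Log2 signal on each array minus the control mean of the gene (y axis) for the 14 Slc25a genes that passed, ordered by their difference, with open circles for the 3 controls, a triangle for transgenic replicate 1 and filled circles for transgenic replicates 2 and 3. The groups do not overlap for any of the 14, and the triangle lies furthest from the controls for genes such as Slc25a10, Slc25a22 and Slc25a33.

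Of 4 carriers of iron and glutathione 1 rose and 1 fell (against 6.04% and 5.84% of all genes). Without transgenic replicate 1, 1 rose and 2 fell (against 14% and 14.5%). Slc25a28 and Slc25a37 encode mitoferrin 2 and mitoferrin 1, which bring iron into mitochondria for heme and iron-sulfur clusters. Slc25a28 had 9.22, 9.20 and 8.92 on the controls and 10.30, 10.32 and 10.42 on the transgenic arrays, and rose by 1.24 (SE 0.107, adjusted p = 0.00257) or 2.35-fold. The SD of the transgenic arrays, replicate 1 included, was 0.07. Slc25a37 lay on the other side, with 9.66, 9.21 and 9.68 against 8.99, 8.22 and 8.03. Its difference of -1.11 just missed the threshold (SE 0.277, adjusted p = 0.0547) and passed without transgenic replicate 1 (-1.40, adjusted p = 0.000257), the one array on which it lay nearest to the controls. Set against the control mean and relative to Slc25a37, Slc25a28 was higher by 2.34 (SD 0.57, n = 3) on the transgenic arrays. These ranged from 1.71 to 2.80 and the controls from -0.35 to 0.39 (exact two-sided permutation p = 0.1, the smallest that 3 against 3 arrays give). This pair, too, was chosen with earlier results of these data known, so this is a description and the p lends no support.

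The upstream window of Slc25a28, the rise with the smallest adjusted p in the family, held 2 GC boxes and 3 CCAAT boxes, marked as above.
Slc25a28, chr19:43674882-43675131, minus strand: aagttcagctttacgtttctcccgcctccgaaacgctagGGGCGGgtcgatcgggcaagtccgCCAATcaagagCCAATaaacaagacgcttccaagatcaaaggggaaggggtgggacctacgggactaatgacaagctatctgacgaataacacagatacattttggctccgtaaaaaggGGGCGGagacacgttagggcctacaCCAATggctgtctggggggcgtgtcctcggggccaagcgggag

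Slc25a39 and Slc25a40 are the carriers of glutathione into mitochondria. Slc25a39 had 10.64, 10.70 and 10.42 on the controls and 9.82, 9.74 and 9.86 on the transgenic arrays, and fell by 0.78 (SE 0.102, adjusted p = 0.00763). The SD of the 3 transgenic arrays was 0.06. Slc25a40, named after its values were seen, had 7.27, 6.99 and 7.18 against 8.14, 7.04 and 7.07, so it was high on transgenic replicate 1 alone and did not pass (0.27, adjusted p = 0.682). The difference between the changes of these genes was not tested.

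Iron and heme enzymes included several falls. Of 11 measured 4 fell and 0 rose, with and without transgenic replicate 1 (against 5.84% and 14.5% of all genes that fell). Alas1, the enzyme of the first and rate-limiting step of heme synthesis outside red cells, which uses the glycine that Slc25a38 imports, fell by 1.12 (SE 0.124, adjusted p = 0.00499). Fech, which puts iron into the heme ring, fell by 0.71 (adjusted p = 0.0172), and Tmem14c, a mitochondrial membrane protein of heme synthesis, by 0.59 (adjusted p = 0.0206). The fourth was Ppox, the enzyme before Fech in the pathway, which fell by 0.72. The median of the list was 0.02, and -0.20 without transgenic replicate 1. Cpox, a further heme enzyme, was not called in either fit (0.04 with all arrays, adjusted p = 0.952). The same held for the iron-sulfur assembly members Iscu, Nfs1, Glrx5, Hscb, Isca1 and Isca2, listed to complete the count.

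Of the 3 genes similar to uncoupling proteins, Slc25a30 rose more than any other member that passed. It had 7.40, 7.83 and 7.44 on the controls and 9.67, 9.10 and 8.92 on the transgenic arrays, and rose by 1.67 (SE 0.223, adjusted p = 0.00825) or 3.18-fold, and 2.74-fold without transgenic replicate 1. Every transgenic array lay more than 1 unit above the highest control. Slc25a27 had 6.24, 6.17 and 6.32 against 7.47, 6.27 and 6.40 and did not pass (0.47, adjusted p = 0.448), since only transgenic replicate 1 was high. Slc25a14 differed by -0.13 (adjusted p = 0.344). The family members Ucp1 and Ucp3, whose symbols the selection did not cover, did not pass (-0.14 and -0.25).
Slc25a30, chr14:75787038-75787287, minus strand: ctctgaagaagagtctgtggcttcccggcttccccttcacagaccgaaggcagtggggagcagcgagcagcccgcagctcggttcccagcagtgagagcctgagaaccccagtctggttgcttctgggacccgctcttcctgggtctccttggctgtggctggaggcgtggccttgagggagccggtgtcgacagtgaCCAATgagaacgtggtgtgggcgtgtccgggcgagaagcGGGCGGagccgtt
This window, shown for the largest rise, held 1 GC box and 1 CCAAT box.

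Carriers of adenine nucleotides and phosphate, which serve ATP synthesis, were called about as often as all genes. Of 9 measured genes 1 rose and 0 fell around a median of -0.01, where 11.9% of all genes passed in either direction. Without transgenic replicate 1, 2 rose and 1 fell, where 28.6% of all genes passed. Slc25a25, a calcium-regulated carrier that exchanges ATP-magnesium for phosphate and so sets the nucleotide pool of the matrix, had 7.35, 7.35 and 7.30 on the controls against 7.99, 8.36 and 8.17. It rose by 0.83 (SE 0.112, adjusted p = 0.00831) or 1.78-fold. The SD of the controls was 0.03, and each transgenic array was well above them. Its relative Slc25a23 had 6.51, 6.63 and 6.61 against 6.12, 6.08 and 6.36 and did not pass (-0.39, adjusted p = 0.0649), but passed as lower without transgenic replicate 1 (-0.36, adjusted p = 0.0352). Slc25a24, the third calcium-regulated relative, had 11.08, 10.98 and 11.01 against 11.23, 11.35 and 11.26 (0.26, adjusted p = 0.0974) and passed as higher without that array (0.28, adjusted p = 0.0358). Relative to Slc25a23, Slc25a25 was higher by 1.22 (SD 0.26, n = 3) on the transgenic arrays. These lay between 1.05 and 1.52 and the controls between -0.06 and 0.08 (exact two-sided permutation p = 0.1, the smallest possible). The pair was chosen with earlier results of these data known, so this is a description and the p lends no support. No such contrast was made with Slc25a24, which also lay higher on the transgenic arrays.

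The main carriers of oxidative phosphorylation had narrow intervals around small differences. Slc25a5, the ADP/ATP carrier of dividing and epithelial cells, had 12.82, 12.75 and 12.79 on the controls and 12.51, 12.78 and 12.71 on the transgenic arrays. The difference was -0.12, with a 95% interval of -0.35 to 0.12 (adjusted p = 0.542). Slc25a3, the phosphate carrier, had 12.27, 12.22 and 12.26 against 11.90, 12.21 and 12.14, a difference of -0.17 with an interval of -0.42 to 0.08 (adjusted p = 0.398). For both genes transgenic replicate 1 was the lowest array and the other 2 transgenic arrays lay nearer the controls. The interval of either gene leaves out a 1.5-fold change in each direction. Slc25a5 has 3 array rows, with differences from -0.16 to -0.12, and near-identical copies of this gene exist in the genome, so these rows may share signal. Slc25a4, the ADP/ATP carrier of muscle and heart, named after its values were seen, had 7.94, 8.10 and 7.28 against 9.30, 7.26 and 7.40. Its difference of 0.21 had the wide interval of -1.18 to 1.60. Transgenic replicate 1 lay above all controls, and the other 2 transgenic arrays lay near the lowest control. The SD was 0.44 on the controls and 1.14 on the transgenic arrays, so both groups were spread. The dim members Slc25a31, Slc25a41 and Slc25a54 differed by -0.04 to 0.07.

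Partners of these carriers in ATP synthesis fell in part. Of 9 measured genes 2 fell and 0 rose, with a median of -0.33, where 5.84% of all genes fell. Without transgenic replicate 1, 3 fell (against 14.5% of all genes), with a median of -0.27. Atp5a1, the alpha subunit of the ATP synthase, fell by 0.33 (SE 0.0733, adjusted p = 0.0387), and Atpif1, the inhibitor of that enzyme, by 0.46 (SE 0.0766, adjusted p = 0.0161). Atp5o, a subunit of the stalk, differed by -0.38 (adjusted p = 0.131). These falls were each under 1.5-fold.

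Among carriers of pyrimidine nucleotides and cofactors, 2 of 8 rose and 1 fell (against 6.04% and 5.84% of all genes). Without transgenic replicate 1, 2 rose and 3 fell (against 14% and 14.5%). Slc25a33, which brings pyrimidine nucleotides into mitochondria for RNA and DNA synthesis, had 5.67, 5.69 and 5.61 on the controls and 7.46, 6.56 and 6.39 on the transgenic arrays. It rose by 1.15 (SE 0.276, adjusted p = 0.0485) or 2.22-fold, and 1.77-fold without transgenic replicate 1. The control signals lay in the dim range, and with all array medians set equal the gene missed the threshold at a similar difference (1.19, adjusted p = 0.0537). The other pyrimidine nucleotide carrier, Slc25a36, had 11.10, 10.67 and 11.13 against 9.26, 10.94 and 10.82 and did not pass (-0.63, adjusted p = 0.487), since it was low on transgenic replicate 1 alone. A second row of Slc25a36 was also low on that array, with 8.55 on transgenic replicate 1 and 10.12 to 10.37 on the other 5.

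Slc25a26, the importer of S-adenosylmethionine, the methyl donor for mitochondrial RNA and proteins, had 7.47, 7.56 and 7.51 against 8.58, 7.95 and 8.12. It rose by 0.70 (SE 0.17, adjusted p = 0.0493), close to the threshold. Slc25a42, the importer of coenzyme A, had 8.09, 8.11 and 7.81 against 7.27, 7.21 and 7.56 and fell by 0.66 (SE 0.136, adjusted p = 0.0308). Slc25a16, which has also been linked to coenzyme A, had 9.28, 9.31 and 9.19 against 9.08, 8.77 and 8.67, and did not pass (-0.42, adjusted p = 0.0891), but passed as lower without transgenic replicate 1 (-0.54, adjusted p = 0.00199). Of the other 3, the folate carrier Slc25a32 and the NAD carrier Slc25a51 differed by 0.31 and -0.25 and did not pass in either fit. The peroxisomal carrier Slc25a17 differed by -0.04, and by -0.37 without transgenic replicate 1, where it passed (adjusted p = 0.0325).

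Enzymes that use these cofactors and nucleotides passed in both directions once transgenic replicate 1 was left out. Of 9 measured enzymes of folate, S-adenosylmethionine, NAD and coenzyme A 2 fell (against 5.84% of all genes) and 0 rose. Without transgenic replicate 1, 2 fell and 4 rose (against 14.5% and 14% of all genes). Nmnat3, a mitochondrial NAD synthesis enzyme, fell by 0.95 (adjusted p = 0.0125) and Coasy, which completes coenzyme A, by 0.56 (adjusted p = 0.0491). Shmt2, a serine and folate enzyme of the matrix, differed by 1.56 (adjusted p = 0.0588) and passed as higher without that array (1.08, adjusted p = 0.000101). The other 3 that passed as higher without it, named to complete the count, were the folate enzymes Mthfd2 (1.01), Mthfd2l (0.61) and Mthfd1l (0.58). With all arrays these 3 differed by 1.54, 0.98 and 1.19 and did not pass (adjusted p = 0.0773, 0.112 and 0.207). Of 11 genes of mitochondrial DNA and nucleotides 2 fell (against 5.84% of all genes) and 0 rose. Without transgenic replicate 1, 3 fell and 1 rose (against 14.5% and 14% of all genes). The 2 falls with all arrays were Ak3, a matrix nucleotide kinase, which fell by 1.11 (SE 0.0811, adjusted p = 0.00158), and Polrmt, the mitochondrial RNA polymerase, which fell by 0.45 (adjusted p = 0.0287). The DNA-binding protein gene Ssbp1 differed by 1.09 (adjusted p = 0.0574) and passed as higher without transgenic replicate 1 (0.77).

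The last 3 members, Slc25a43, Slc25a46 and Slc25a53, differed by -0.22, 0.03 and -0.02 and did not pass in either fit. Slc25a46, an outer membrane protein of mitochondrial fission, had a 95% interval of -0.21 to 0.28.

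Relatives and other transport proteins of the mitochondrial membranes showed falls only among those that passed. Of the 4 measured family genes without an Slc25a symbol 2 fell. Mtch2, an outer membrane relative of the carriers that takes part in membrane insertion and cell death, had 11.82 ± 0.07 on the controls and 10.88 ± 0.07 on the transgenic arrays (SD, n = 3), and fell by 0.93 (SE 0.0834, limma adjusted p = 0.00279), and Mtch1 fell by 0.53 (SE 0.0864, adjusted p = 0.0148). Of 18 measured transport proteins outside the family 4 fell and 0 rose, where 5.84% of all genes fell. Without transgenic replicate 1, 7 fell, where 14.5% of all genes did. Sfxn1, a serine transporter, fell by 0.67 (SE 0.0803, adjusted p = 0.006), the calcium uniporter gene Mcu by 0.71 (SE 0.107, adjusted p = 0.0118) and the pyruvate carrier subunit gene Mpc1 by 0.68 (SE 0.128, adjusted p = 0.0236). The fourth was Abcb8, named to complete the count.

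The machinery that inserts the carriers had rises among the genes that passed. Of 11 measured genes 2 rose and 0 fell, and 3 rose without transgenic replicate 1 (against 6.04% and 14% of all genes that rose). Timm29, a subunit of the TIM22 complex of the inner membrane, had 7.32 ± 0.07 on the controls and 8.37 ± 0.23 on the transgenic arrays (SD, n = 3), and rose by 1.06 (SE 0.131, limma adjusted p = 0.0065), and the chaperone gene Timm8b rose by 0.37 (SE 0.0779, adjusted p = 0.032). Tomm22, an outer membrane import receptor, differed by 0.51 (adjusted p = 0.0828) and passed as higher without transgenic replicate 1 (0.37). Set against the control means, the median gene stood at 0.69 on transgenic replicate 1 and at 0.08 and -0.08 on the other 2, so the median of 0.35 over the list rests on that array, and it was -0.03 without it.

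**Figure D3:**
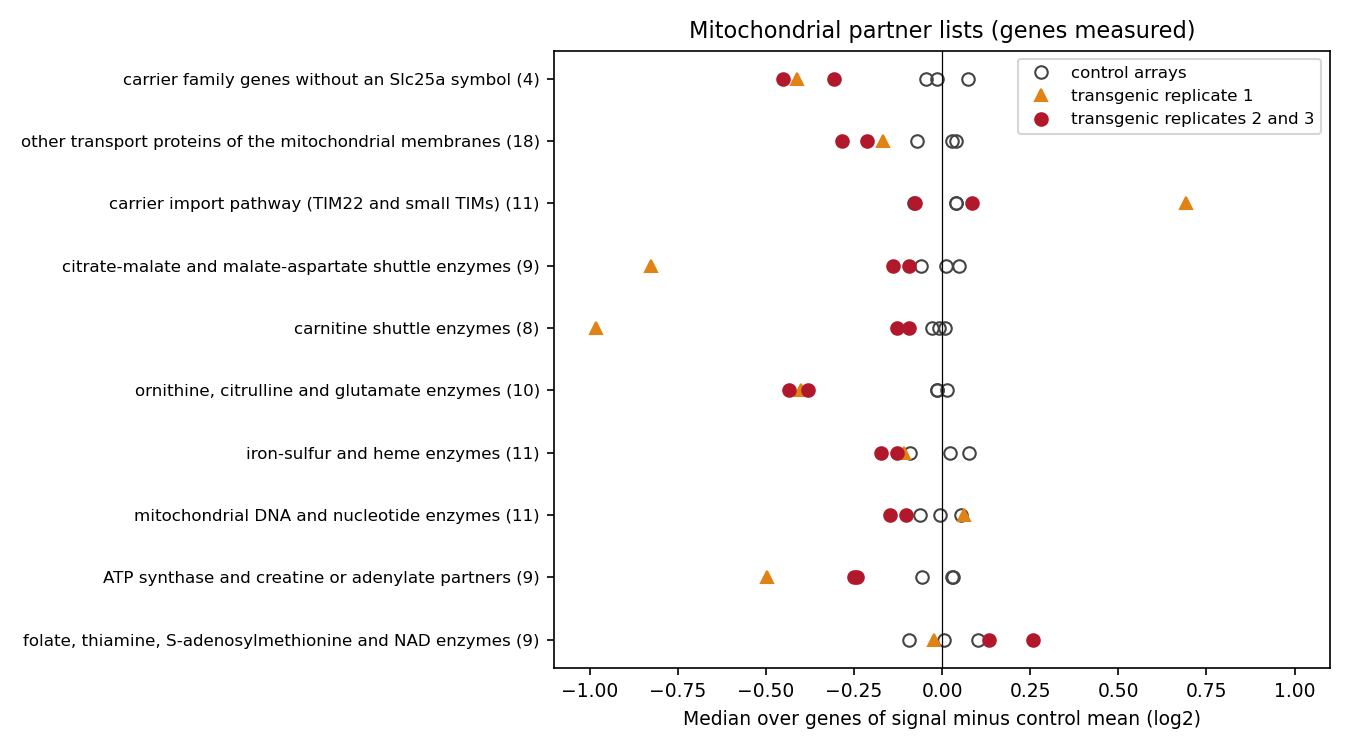
Median over the genes of each list of mitochondrial partners (y axis, number of genes measured in parentheses) of the log2 signal minus the control mean (x axis), with open circles for the controls, a triangle for transgenic replicate 1 and filled circles for transgenic replicates 2 and 3. The ornithine, citrulline and glutamate enzymes lie near -0.4 on all 3 transgenic arrays, while the import pathway and both shuttle lists stand apart on transgenic replicate 1.

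Transgenic replicate 1 stood outside the other arrays about as often for the members as for all genes. It was the highest or lowest of the 6 arrays for 27 of the 46 genes (58.7%), where this held for 54.6% of all genes. For 10 members it lay on the other side of the control mean from the average of replicates 2 and 3 (21.7%, against 30.7% of all genes). The 9 members called once it was left out, and not in the fit of all 6 arrays, were Slc25a2 and Slc25a24 (higher) and Slc25a13, Slc25a16, Slc25a17, Slc25a23, Slc25a34, Slc25a37 and Slc25a45 (lower). Some of them also passed with it under other settings, such as Slc25a37 without the dim genes (adjusted p = 0.0420). Slc25a2 passed with array weights (adjusted p = 0.00215), which let an array count for less than the others. It did not pass under quantile normalization or equal array medians. The groups did not overlap for 24 of the 46 genes (52.2%), where this held for 34.2% of all genes, and these 24 included all 14 that passed. The 23 members that did not pass in either fit had differences of -0.63 to 0.47 with all arrays and of -0.44 to 0.27 without transgenic replicate 1.

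**Figure D4:**
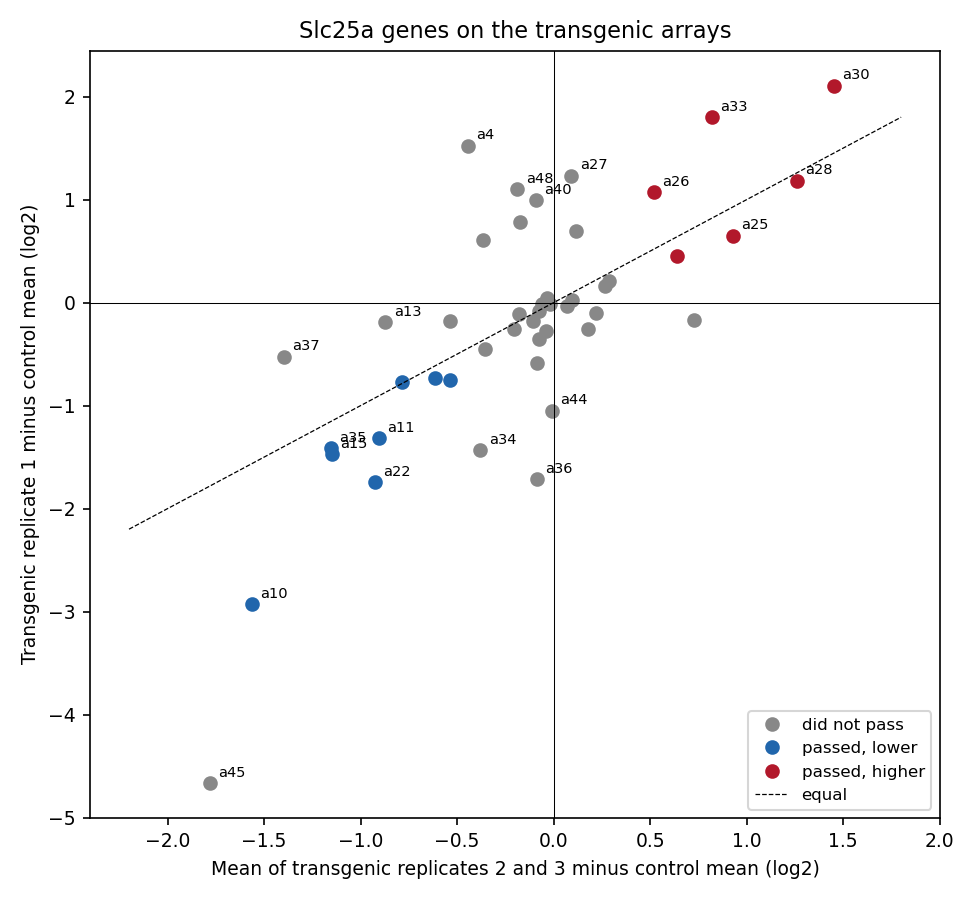
Log2 signal of transgenic replicate 1 minus the control mean (y axis) against the mean of transgenic replicates 2 and 3 minus the control mean (x axis) for the 46 Slc25a genes, labelled without the Slc25 prefix, with a dashed line where both are equal. The 14 genes that passed lie on the same side of 0 on both axes, while Slc25a4, Slc25a12, Slc25a17, Slc25a40 and Slc25a48 lie above the controls on replicate 1 and below them on the other 2.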

How the data were processed

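Jejunal epithelial RNA of 3 control and 3 transgenic mice, 250 ng per array, was measured on Affymetrix gene arrays, as the labels' protocols state. Deposited values are the authors' log2 signals, and the submitters' processing notes name RMA and Partek 6.5. RMA forces the arrays to a common distribution, so a shift of the total amount of RNA is not visible, and dim signals are compressed. Array medians were 6.27 to 6.34.

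Of 35399 rows, 21789 had 1 gene symbol in the platform annotation, 1621 several and 11989 none. Each gene kept the single-symbol row with the highest mean, 19938 genes in all. Differences were fitted with limma 3.58.1 in R 4.3.3 (lmFit, eBayes) without covariates, and ± is an SD. The number of arrays limits the precision. On simulated data with 200 genes of 19938 changed by 4-fold, the test recovered 89%, with 5 false calls. This rate belongs to the simulated data and cannot be carried over to the real arrays. There 2368 genes passed, and Slc25a45 did not pass with a 6.69-fold difference (limma adjusted p = 0.0793). The rate of recovery on arrays of which 1, transgenic replicate 1, stands apart was not tested. Upstream sequences come from RefSeq (GRCm38.p6), matched by symbol.

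Each of the 46 family genes chosen is accounted for. Values on each array are given for members that passed and for 12 others with a large difference or signal (further members were named after their values were seen), and up to 3 partner genes per list are named by p. Members, lists and tests were chosen with earlier results of these data known. Alternatives were other normalizations, dim genes left out, replicate blocks, array weights, eBayes with trend and robust options, other handling of rows, another threshold and each array left out.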

Additional observations from a re-analysis of the deposited data

How the results depend on the processing

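The 6 rises and 8 falls were within 1.5 times these counts under quantile normalization, equal array medians and the dimmest 40% of genes left out. The same held for eBayes with trend and robust settings, the mean of a gene's rows, all rows tested and an adjusted p under 0.1. A block on the number in the sample descriptions gave 7 rises and 12 falls. In that block control replicate 1 and transgenic replicate 1 share a number with no other array. Neither then informs the difference, and little is left to estimate the spread, so these counts are not those of all 6 arrays. With the replicate block on the title number 3 members rose and 4 fell. Control and transgenic arrays with the same title number had correlations of their deviations of -0.17 to -0.07. With 3 arrays per group, deviations from the group mean cannot show whether the arrays were paired. The labels state no block, so the main fit treats the arrays as unpaired. Array weights gave 8 rises and 14 falls. The share of all genes that passed was counted only with all arrays, without dim genes and with single arrays left out. The counts under the blocks, the weights and the other settings thus have no such share beside them. With single arrays left out, 1 to 8 members rose and 3 to 15 fell. The median difference of -0.06 was -0.023 with equal array medians, -0.17 without dim genes, -0.10 with array weights, and -0.10 to -0.049 with single arrays left out. The cause of these shifts was not tested, apart from the 9 dim members that the removal of dim genes takes out. The 26 members that passed or had a large difference or signal were followed through the alternatives run for each. Of these results 319 kept direction and side of the threshold, and 44 kept direction but no longer passed. A further 26 kept direction and newly passed, and 0 changed direction. Other members did change direction without transgenic replicate 1. Slc25a4 went from 0.21 to -0.44, Slc25a12 from 0.15 to -0.17, Slc25a40 from 0.27 to -0.09 and Slc25a48 from 0.24 to -0.19. Signal near the lower end of the scale limits what can be seen of the 9 dim members.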

Other observations

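Some members are neighbours in the genome, with no other protein-coding gene between them in RefSeq (GRCm38.p6). Slc25a41 and Slc25a23 on chromosome 17 differed by -0.04 and -0.39, Slc25a54 and Slc25a24 on chromosome 3 by -0.01 and 0.26, Slc25a29 and Slc25a47 on chromosome 12 by -0.16 and 0.23, and Slc25a43 and Slc25a5 on chromosome X by -0.22 and -0.12. None of these 8 genes passed limma with all arrays, and the lowest adjusted p among them was 0.0649, for Slc25a23.

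Slc25a40 had a second array row, with a difference of 0.41 beside 0.27 for the row used above. On both rows transgenic replicate 1 was the highest array, at 7.05 and 8.14.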
